A study of Mus musculus with 4 samples.

Results

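The 78 genes described here carry symbols beginning with Mrpl or Mrps and a digit, the names given to the protein components of the mitochondrial ribosome. They were taken by symbol from a table of 11111 genes, and no gene entered by its own values. The set itself was chosen with earlier results of these data known. Of the 78 genes, 49 are named for the large subunit (Mrpl) and 29 for the small subunit (Mrps). All 78 protein-coding genes with such a symbol in the GENCODE M21 annotation of GRCm38 were in the table, so the set was complete by that annotation. None of the 5 annotated pseudogenes with such a name was in the table. The RNA came from bone marrow-derived macrophages of wild-type C57BL/6 mice, grown for 7 days with fresh medium on day 4. The cells were transfected with a control morpholino (Ctrl MO) or with Regnase-1-targeting morpholinos (Reg1-MOs) at 2 µM, with Endoporter at 6 µl/ml, for 24 hours. Both groups were then stimulated with lipopolysaccharide (LPS) at 10 ng/ml for 4 hours, so no library shows unstimulated cells. There were 2 libraries per group, and the labels do not say whether they came from separate mice or cultures. The p-values therefore rest on the spread among these libraries alone, and that spread may be technical. The labels use MO1 and MO2 both for the Reg1-MOs columns and for the targeting morpholinos, so it cannot be told whether a library was given a single morpholino or the pair.

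Mitochondria hold ribosomes of their own, which translate the few proteins encoded in mitochondrial DNA, all of them subunits of the respiratory chain and ATP synthase. Every protein of these ribosomes is encoded in the nucleus, made in the cytoplasm and imported. The large subunit forms peptide bonds and the small subunit decodes the mRNA. In macrophages, LPS is known to shift energy metabolism away from respiration towards glycolysis. Regnase-1, the product of Zc3h12a, is an RNase that degrades inflammatory mRNAs.

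The deposited values are log2 of (reads + 0.5) scaled per library, from which the reads were recovered. The 4 libraries held 23369753 to 25213695 reads in the table. Zc3h12a itself, at 3407 and 3572 control reads and 7799 and 6753 Reg1-MOs reads, rose 2.14-fold (log2 1.10, SE 0.07, adjusted p = 0.000401 by limma). All 7 macrophage markers were in the table, with means of 3586 reads or more; 1 rose, 2 fell and 5 had an unadjusted p under 0.05. Itgam, an integrin subunit, stood at -0.67 (SE 0.08, limma adjusted p = 0.00302), Lyz2, a lysozyme, at -0.27 (SE 0.06, adjusted p = 0.0366) and Cd68, a lysosomal glycoprotein, at 0.34 (SE 0.07, adjusted p = 0.0220). Those of stromal cells and fibroblasts summed to 181.1 and 188.4 linear units (the deposited values taken out of log2, which sum to 1273000 to 1323000 per library over all genes and so are not CPM) with Ctrl MO and to 76.2 and 85.9 with Reg1-MOs, and 6 of the 6 in the table fell. Neutrophil markers summed to 386 and 424 against 368 and 323, with 0 of 6 past the threshold by limma or with voom weights and 2 at an unadjusted p under 0.05. Of the mast cell and basophil markers 4 were listed and Kit was the 1 in the table, at 70 and 71 reads against 44 and 42. No marker of dendritic cells, lymphocytes or erythroid cells on the lists used was among the genes analysed. In such bulk RNA, fewer cells of a type and less RNA per cell cannot be told apart. The part of these marker changes in the results that follow was not tested.

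The comparison of Reg1-MOs with Ctrl MO asks which transcripts differ with the Regnase-1-targeting morpholinos. The libraries hold RNA only, so they do not show whether Regnase-1 protein or its activity fell or rose. Of the mitochondrial ribosomal protein genes, Mrpl34 alone passed the test. By limma's moderated test on all genes, with Benjamini-Hochberg adjustment and a threshold of 0.05, 1 of 78 fell, Mrpl34, and 0 rose. Over all 11111 genes 12.2% were called, 6.22% upwards and 6.03% downwards. Among the 6024 genes with mean reads in the range of the members, 10.9% were called, 5.63% upwards and 5.26% downwards. At an unadjusted p under 0.05 there were 8 higher and 2 lower members, or 10 of 78, against 29.4% of all genes and 26.8% of those in the read range. With voom weights on the recovered reads the counts were again 0 rises and 1 fall.

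The sizes were small as well. The members' log2 fold changes ran from -0.72 to 0.50, with a median size of 0.11 regardless of sign, against 0.17 over all genes. For 77 of 78 members the 95% interval of the change lay inside a 2-fold change in either direction, as it did for 87.4% of all genes and for 93.5% of those in the members' read range. Mrpl41 was the exception, with an interval of -1.27 to -0.17. The intervals of 70 members lay within 1.5-fold, as did those of 7290 of all 11111 genes and 4166 of the 6024 in the read range. These intervals are for single genes and are not adjusted for their number.

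**Figure D1:**
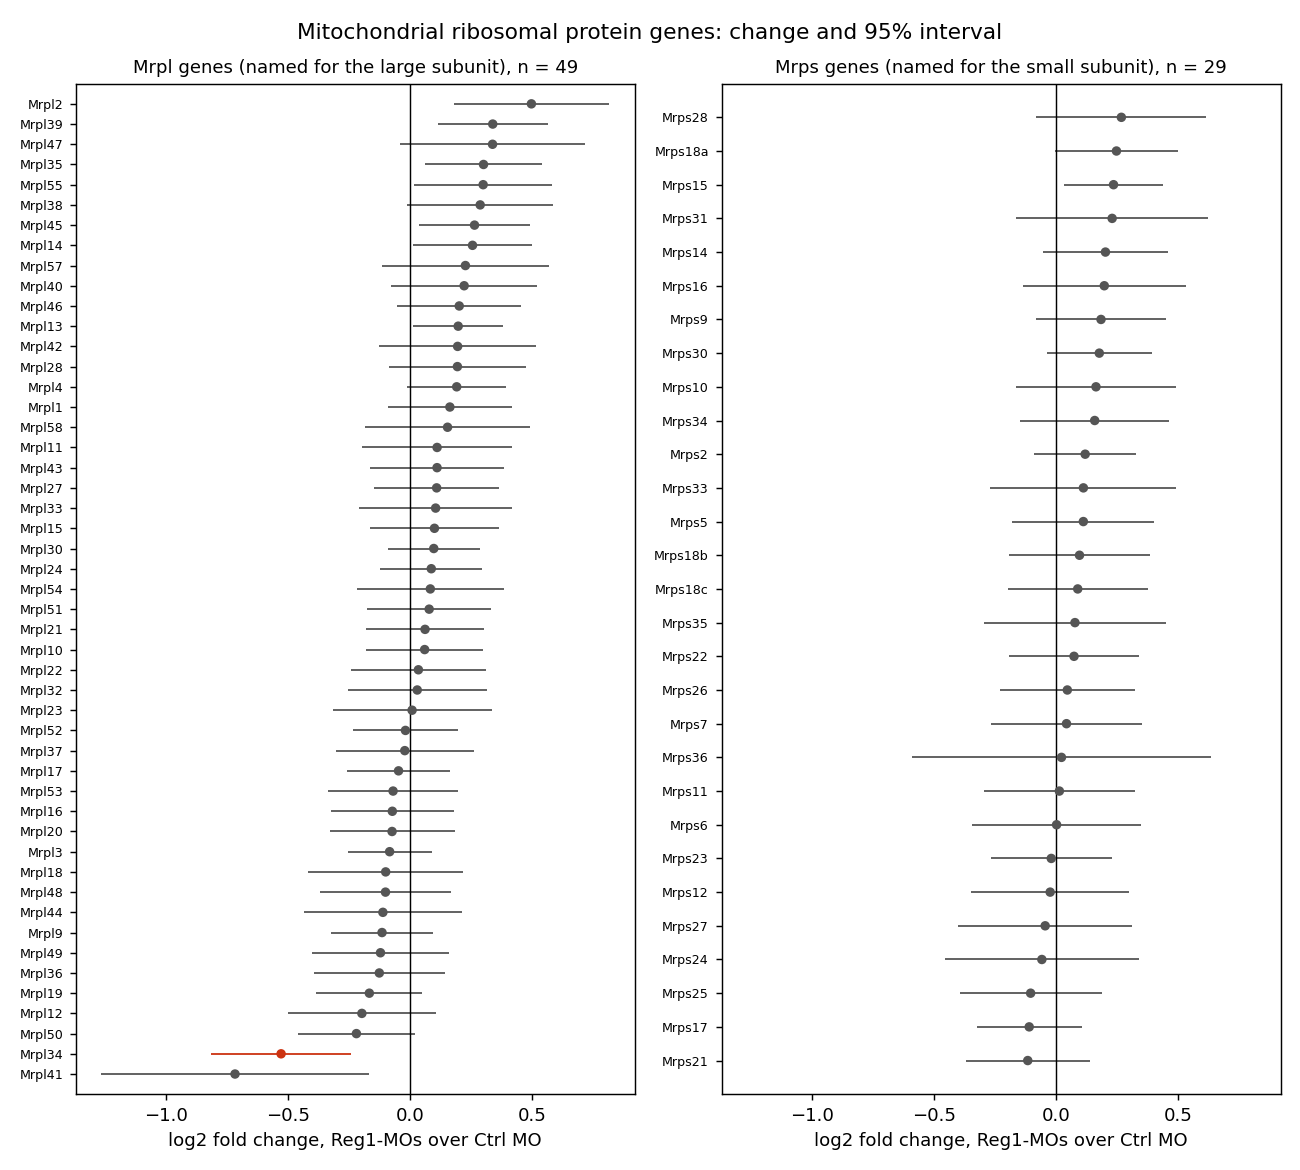
Log2 fold change of Reg1-MOs over Ctrl MO (x axis) for the 49 Mrpl genes and the 29 Mrps genes, each row 1 gene, with points for limma's estimate and bars for its 95% interval from 2 libraries per group. Mrpl34, in red, is the gene past the adjusted threshold; the interval of Mrpl41 is the one that reaches beyond a log2 value of -1.

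Mrpl34 encodes a small protein of the large subunit with a counterpart in bacterial ribosomes. The gene (ENSMUSG00000034880) lies on chromosome 8, from 71464959 to 71465747 on the plus strand of GRCm38, and its principal transcript has 2 exons. It had 191 and 178 control reads and 133 and 116 Reg1-MOs reads. Both Reg1-MOs libraries were lower than both controls. The fall was 1.44-fold, or -0.53 on the log2 scale (SE 0.12, limma adjusted p = 0.0330). With any 1 of the 4 libraries left out the call was lost, at adjusted p-values of 0.0765 to 0.181, while the value stayed between -0.58 and -0.48. It also ended without a mean-variance trend (adjusted p = 0.0599).

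Its promoter window from RefSeq (GRCm38.p6, chr8:71464676-71464975, plus strand, 250 bases before to 50 after the annotated start) is shown with those of Mrpl2 and Mrpl39, the members with the next smallest p, because these 3 genes stood farthest from zero relative to their error. Capitals mark matches to the motifs searched, whose shares are given further on. In Mrpl34 they are an ETS core from base 214 and, on the other strand, an antioxidant response element from base 255.
Mrpl34: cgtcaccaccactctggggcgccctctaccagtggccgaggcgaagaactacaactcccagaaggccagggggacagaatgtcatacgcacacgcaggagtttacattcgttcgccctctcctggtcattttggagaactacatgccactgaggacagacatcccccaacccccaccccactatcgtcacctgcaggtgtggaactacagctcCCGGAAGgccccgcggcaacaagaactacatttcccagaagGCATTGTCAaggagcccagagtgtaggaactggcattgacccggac
The window of Mrpl2 (chr17:46645979-46646278, plus strand) has an E-box from base 112.
Mrpl2: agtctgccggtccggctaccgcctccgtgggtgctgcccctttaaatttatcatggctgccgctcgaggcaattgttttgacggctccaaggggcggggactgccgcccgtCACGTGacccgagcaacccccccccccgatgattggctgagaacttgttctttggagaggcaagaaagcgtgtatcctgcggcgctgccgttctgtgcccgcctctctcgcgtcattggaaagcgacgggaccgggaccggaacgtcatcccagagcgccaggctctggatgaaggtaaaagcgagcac
The window of Mrpl39 (chr16:84735195-84735494, minus strand) has an NRF1 motif from base 126. GENCODE M21 puts the start of this gene at 84735742, outside the RefSeq window.
Mrpl39: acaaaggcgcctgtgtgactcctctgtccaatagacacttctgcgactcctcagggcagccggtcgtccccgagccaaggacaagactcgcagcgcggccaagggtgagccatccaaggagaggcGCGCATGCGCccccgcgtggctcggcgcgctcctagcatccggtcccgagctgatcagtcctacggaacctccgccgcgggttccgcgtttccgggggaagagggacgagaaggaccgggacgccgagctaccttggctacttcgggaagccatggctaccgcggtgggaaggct

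Several other large-subunit genes came near the threshold without passing it. Mrpl2 encodes the counterpart of bacterial L2, a protein next to the site where peptide bonds are made. It had 156 and 134 control reads and 222 and 178 Reg1-MOs reads. The groups did not overlap, and the log2 fold change was 0.50 (SE 0.14, limma adjusted p = 0.0551). With all libraries kept, Mrpl2 passed with equal library totals (limma adjusted p = 0.0452) and with quantile normalization (0.0398). It also passed with a replicate block, which no label supports (0.0026). Its adjusted p was 0.117 without a variance trend. With a library left out, the log2 fold change ran from 0.39 to 0.61.

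Mrpl39 encodes a protein found in mitochondrial but not bacterial ribosomes, and in humans variants of its gene cause mitochondrial disease. It had 458 and 429 reads against 599 and 497, at 0.34 (SE 0.10, adjusted p = 0.0603). Mrpl35, with a bacterial counterpart, had 349 and 308 reads against 410 and 377, at 0.30 (SE 0.10, adjusted p = 0.1008). In both genes the Reg1-MOs libraries were the higher ones.

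Mrpl41 encodes a mitochondrion-specific protein of the large subunit. It had the lowest mean reads of the set over the 4 libraries, at 68 and 53 in the controls and 43 and 29 after targeting. Both Reg1-MOs libraries were below both controls, by -0.72 on the log2 scale (SE 0.23, limma adjusted p = 0.0895). Its replicates also lay apart, by 0.36 between the controls and 0.44 between the Reg1-MOs libraries on the log2 scale.

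**Figure D2:**
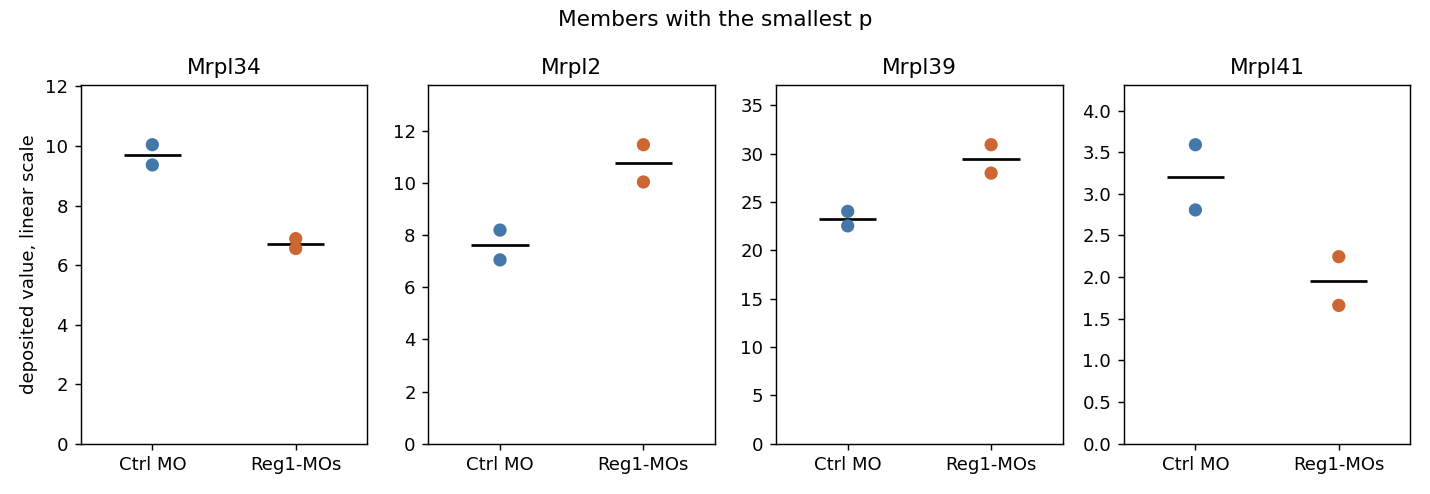
Deposited values on a linear scale (y axis, from 0) in each library of the 4 members with the smallest p, with Ctrl MO in blue, Reg1-MOs in orange and lines for the group means (n = 2 each). In Mrpl34 and Mrpl41 both Reg1-MOs libraries lie below the controls, and in Mrpl2 and Mrpl39 above them.

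The stalk proteins, which recruit translation factors to the large subunit, did not pass the test. Mrpl12, whose human protein has also been reported to bind the mitochondrial RNA polymerase, had 413 and 365 control reads and 382 and 284 Reg1-MOs reads (-0.20, SE 0.13, limma adjusted p = 0.352). Mrpl11 stood at 0.11 (SE 0.13) and Mrpl10 at 0.06 (SE 0.10), and at -0.06 and -0.04 once Reg1-MOs replicate 1 was left out. In all 3 genes the groups overlapped.

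Of 8 proteins around the exit of the peptide tunnel, 0 passed by limma or with voom weights and 2 had an unadjusted p under 0.05. Mrpl45, which tethers the ribosome to the inner membrane, had 419 and 410 reads against 537 and 437 (0.26, SE 0.10, limma adjusted p = 0.125). Mrpl44 had 286 and 249 against 279 and 207 (-0.11, SE 0.14, adjusted p = 0.632), and 0.04 without Reg1-MOs replicate 2. Mrpl47 had 90 and 74 against 100 and 101 (0.34, SE 0.16, adjusted p = 0.216).

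Of 7 proteins listed for the central protuberance, the crown of the large subunit that contacts the small one, 0 passed by limma or with voom weights, none at an unadjusted p under 0.05, and the median log2 fold change was 0.15. Mrpl58, a peptidyl-tRNA hydrolase that is built into the large subunit, had 126 and 116 reads against 149 and 115 (0.15, SE 0.14, limma adjusted p = 0.522).

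Among the small-subunit genes, 0 of 29 passed by limma or with voom weights, and 1 had an unadjusted p under 0.05. That gene was Mrps15, with a bacterial counterpart, at 485 and 491 control reads and 602 and 520 Reg1-MOs reads. Its groups did not overlap, and the log2 fold change was 0.24 (SE 0.09, limma adjusted p = 0.122). The range over the small subunit was -0.12 to 0.27.

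Mrps12 encodes the counterpart of bacterial S12, which takes part in decoding. It had 198 and 163 reads against 171 and 173 (-0.02, SE 0.14, adjusted p = 0.932), and the value was positive, at 0.12 and 0.05, when Ctrl MO replicate 1 or Reg1-MOs replicate 1, respectively, was left out. Mrps14 stood at 0.20 (SE 0.11) and Mrps28 at 0.27 (SE 0.15), with adjusted p-values of 0.262 and 0.278. Variants in the human genes of both cause mitochondrial disease.

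Mrps18a and Mrps30 are named for the small subunit, but structures of the mammalian mitochondrial ribosome place their proteins in the large one. Mrps18a had 452 and 436 reads against 584 and 451 (0.25, SE 0.11, limma adjusted p = 0.176). Mrps30 had 376 and 398 against 448 and 405 (0.18, SE 0.09, adjusted p = 0.246). In both, the Reg1-MOs libraries were higher than the controls (for Mrps18a 4.67 in the lower Reg1-MOs library and 4.57 in the higher control, as deposited log2 values).

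Mrps36, now known as a subunit of the oxoglutarate dehydrogenase complex, had 75 and 45 control reads and 66 and 50 Reg1-MOs reads (0.02, SE 0.26, adjusted p = 0.966). It had the widest replicate gap of the set, and its value was -0.34 without Ctrl MO replicate 2 and -0.11 without Reg1-MOs replicate 1. Annotated pseudogenes are named for Mrps36, Mrpl23 and Mrpl48, so the unstated counting could have split or dropped reads of these genes.

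The large and the small subunit had nearly equal medians. The median log2 fold change was 0.08 for Mrpl and 0.09 for Mrps genes, a difference of -0.01, with -0.03 for all genes. In the mean log2 value of its genes, the large subunit exceeded the small by 0.389 and 0.383 in the Ctrl MO libraries and by 0.351 and 0.357 in the Reg1-MOs libraries. The gap was thus smaller in both Reg1-MOs libraries, by a few hundredths. These means include Mrpl41 (-0.72) and Mrpl34 (-0.53), the lowest log2 fold changes of the set, both in the large subunit. The gap without them was not computed, so it is not read as a difference between the subunits. No p is given for these scores, since the members were chosen as a set. With Mrps18a and Mrps30 counted in the large subunit, the medians were 0.09 for the large and 0.08 for the small.

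The shift of the whole set differed with the libraries used. Each gene was set against its own mean over the 4 libraries. The median deviation was then 0.01 and -0.07 in the Ctrl MO libraries, and 0.13 and -0.04 in Reg1-MOs replicates 1 and 2. Reg1-MOs replicate 1 was thus the high library, and replicate 2 lay between the controls. It was higher than Reg1-MOs replicate 2 in 64 of 78 members, or 82.1%, against 48.3% of all genes. Ctrl MO replicate 1 exceeded Ctrl MO replicate 2 in 55 of 78, or 70.5%, against 45.3% of all genes. The median log2 fold change of the 78 genes was 0.08 with all libraries, 0.01 without Reg1-MOs replicate 1 and, with Reg1-MOs replicate 2 left out instead, 0.16. Leaving out Ctrl MO replicate 1 gave 0.11, and leaving out Ctrl MO replicate 2 gave 0.04.

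**Figure D3:**
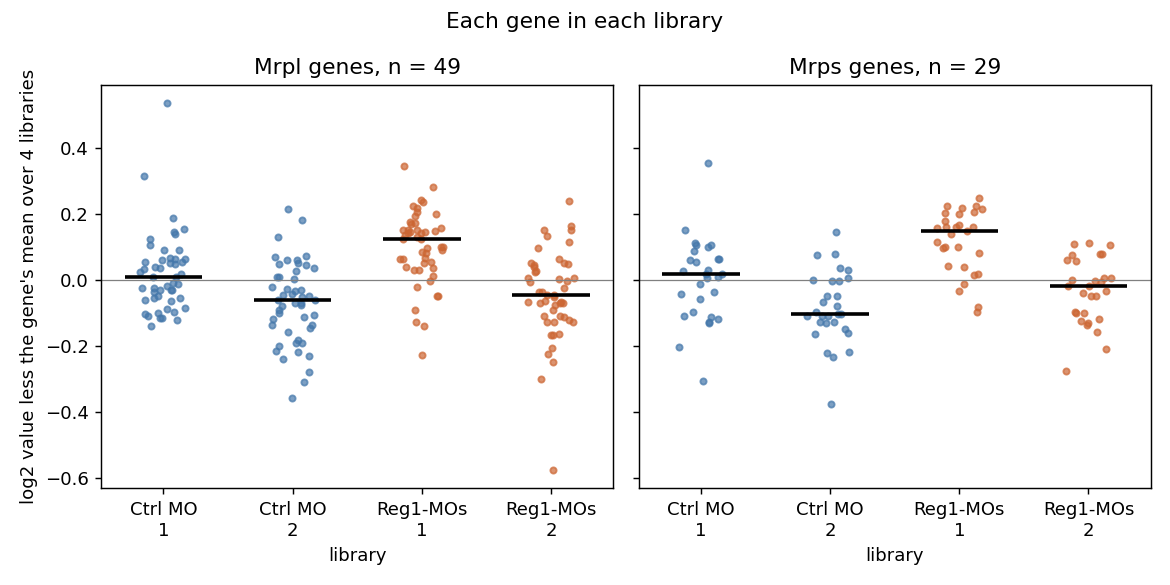
Each point is 1 gene in 1 library, as its log2 value less its mean over the 4 libraries (y axis), for 49 Mrpl and 29 Mrps genes, with black lines for the medians. Reg1-MOs replicate 1 is the highest library in both subunits, and Reg1-MOs replicate 2 lies between the Ctrl MO libraries.

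In 26 of 78 members both Reg1-MOs libraries exceeded both controls, and in 11 they were below both. Over all genes these shares were 27.1% and 31.8%, together 58.9%, and in the read range 26.7% and 30.3%, together 57.0%. The groups overlapped in the other 41 members. The non-overlapping members were 19 higher and 9 lower among Mrpl genes, and 7 higher and 2 lower among Mrps genes.

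The 46 members listed with a bacterial counterpart had a median log2 fold change of 0.09, with 1 fall, and the 32 others one of 0.08, with 0 calls by limma and 4 at an unadjusted p under 0.05. For 14 genes whose human counterparts carry variants that cause mitochondrial disease, the median was 0.08, with 0 calls by limma or with voom weights and 1 at an unadjusted p under 0.05. The differences between these groups were not tested.

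Levels were compared per kilobase of the principal transcript, in the same linear units. The median level over the 4 libraries was 10.6, and the range was 0.985 to 115.8. The highest was Mrpl52, a mitochondrion-specific protein of the large subunit, at 117.1 and 115.8 in the controls and 123.3 and 107.1 after targeting. Mrpl30, with a bacterial counterpart, followed at 44.6 and 43.9 against 49.0 and 45.7. The lowest were Mrps35, at 1.00 and 0.914 against 0.961 and 1.06, and Mrpl47, at 1.41 and 1.16 against 1.54 and 1.70. Mrpl52 stood at a log2 fold change of -0.02 and was positive, at 0.08, without Reg1-MOs replicate 2 and, at 0.004, with equal totals. Mrpl30 stood at 0.10 and Mrps35 at 0.08, and neither passed. The long annotated transcripts of Mrps35 (4162 bases) and Mrpl47 (3364 bases) enter these levels as divisors. The median level was 11.4 for Mrpl and 9.44 for Mrps genes. Together the members took 1339 and 1279 linear units in the controls and 1440 and 1304 after targeting.

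The members are spread over 17 chromosomes, with most on chromosome 11, which holds 11, and chromosome 17, which holds 8. Of the 78, 29 start within 1000 bases of a gene of the table that runs the opposite way. One such pair joins members of both subunits, Mrpl46 (0.20, SE 0.11) and Mrps11 (0.01, SE 0.13), whose annotated genes overlap by 413 bases. Among the 29 partners, 3 rose and none fell, against 6.22% and 6.03% of all genes. With so few partners, these counts are not read as a difference from all genes. Klc4, a kinesin light chain gene starting 207 bases from Mrpl2, had 173 and 145 reads against 298 and 264 (0.86, SE 0.13, limma adjusted p = 0.00620), a call that ended when Reg1-MOs replicate 1 was left out (adjusted p = 0.0719). Tmem63b, next to Mrpl14, stood at 0.34 (SE 0.09, adjusted p = 0.0427). Pnpla7, next to Mrpl41, rose by 0.41 (SE 0.08, adjusted p = 0.0156), while Mrpl41 itself had the lowest fold change of the set. The calls of Tmem63b and Pnpla7 ended with some libraries left out (adjusted p up to 0.212 and 0.139) and without a variance trend (0.135 and 0.0885). In all, 22 members overlap another gene of the table. The libraries were directional, but the strand setting of the counting is not given in the sources used here, so reads of overlapping genes may have been shared.

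RefSeq promoter windows were found for 69 members. The ETS core, spelled CCGGAAG, is bound by factors that include GABPA, a regulator of nuclear genes for mitochondrial proteins. It was present on either strand in 24 member windows, or 34.8%, against 18.5% of the windows of genes in the table and 8.86% of all windows. The motif of NRF1, another such regulator was present in 13, or 18.8%, against 10.5% and 4.60%. That of YY1, spelled AAGATGGCG, was present in 8, or 11.6%, against 3.18% and 1.40%. The antioxidant response element, spelled TGACNNNGC, was present in 14, or 20.3%, against 14.5% and 12.4%. The E-box, spelled CACGTG, was present in 5, or 7.25%, against 10.2% and 7.15%, and a ZBTB33-type palindrome in 1, or 1.45%, against 1.07% and 0.466%. The motifs do not contain each other. A match is a description of the letters and not a measure of binding. The median log2 fold change was 0.05 for members with the ETS core and 0.10 for those without it, and 0.05 and 0.08 for the NRF1 motif. It was -0.0038 and 0.08 for the YY1 motif, -0.02 and 0.08 for the E-box, and 0.06 and 0.07 for the antioxidant response element. The 1 member with the palindrome stood at 0.23, against a median of 0.07 for the rest. These differences were not tested.

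Regulators of mitochondrial genes were called at about the share of all genes. Of 9 regulators of mitochondrial biogenesis in the table, 1 fell and 0 rose, or 11.1% called, against 12.2% of all genes. Myc had 211 and 219 control reads and 165 and 140 Reg1-MOs reads (-0.46, SE 0.12, limma adjusted p = 0.0436), and its call ended without any 1 library (adjusted p up to 0.246), without a variance trend (0.0744) and with equal totals (0.0505). Gabpa had 1451 and 1460 against 1090 and 1214 (-0.30, SE 0.10, adjusted p = 0.0981). Nrf1 had 623 and 677 against 611 and 540 (-0.14, SE 0.09, adjusted p = 0.344).

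The rest of the mitochondrial translation machinery gave no calls by limma. Over all genes 12.2% were called, and 29.4% had an unadjusted p under 0.05. The lists are short, so their counts are not read as a difference from all genes. The 5 mitochondrial ribosomal proteins with other names (Dap3, Gadd45gip1, Chchd1, Ptcd3 and Aurkaip1) had 0 calls by limma or with voom weights and none at an unadjusted p under 0.05. Chchd1 was the highest of them, at 0.19 (SE 0.12), and Aurkaip1 stood at 0.15 (SE 0.10). Of 26 genes of ribosome assembly and rRNA modification, 0 passed by either method and 4 had an unadjusted p under 0.05. Mpv17l2, which takes part in mitochondrial ribosome assembly, had 157 and 132 reads against 203 and 181 (0.45, SE 0.13, limma adjusted p = 0.0653), and Ngrn stood at -0.45 (SE 0.16, adjusted p = 0.109).

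Of 17 mitochondrial translation factors in the table, 0 passed by either method and 2 had an unadjusted p under 0.05. Oxa1l, which inserts newly made proteins into the inner membrane, stood at 0.25 (SE 0.09, limma adjusted p = 0.102), and Pdf, the mitochondrial peptide deformylase, at -0.33 (SE 0.14, adjusted p = 0.153). Of 20 genes for mitochondrial tRNA charging, 0 passed by either method and 4 had an unadjusted p under 0.05. Lars2, the mitochondrial leucyl-tRNA synthetase, had 3976 and 2617 reads against 6129 and 4313 (0.71, SE 0.19, adjusted p = 0.0545). It passed with equal totals (0.0306), with quantile normalization (0.0387) and without Ctrl MO replicate 1 (1.01, adjusted p = 4.941e-07), and stood at 0.41 without Ctrl MO replicate 2. Fars2 stood at 0.54 (SE 0.15, adjusted p = 0.0592). Of 15 genes of mitochondrial DNA expression, 0 passed by either method and 2 had an unadjusted p under 0.05, Ssbp1 at 0.32 (SE 0.12) and Hsd17b10 at 0.24 (SE 0.10). Transcripts of the mitochondrial DNA itself were not analysed here.

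The cytoplasmic ribosomal protein genes moved more. Of 87 in the table, 30 rose and Rpl22l1 fell (-0.69, SE 0.10, limma adjusted p = 0.00508), with a median log2 fold change of 0.29, against 0 rises and a median of 0.08 for the mitochondrial set. Rpsa, of the small cytoplasmic subunit, had 3280 and 3107 control reads and 5516 and 4378 Reg1-MOs reads (0.66, SE 0.09, limma adjusted p = 0.00379). Their median level per kilobase was 212.7, against 10.6, and their median reads per library 3271 against 256, so the depth behind the tests differed. With Ctrl MO replicate 1 left out, 14 rose in place of 30, and with Ctrl MO replicate 2 left out, 5. With Reg1-MOs replicate 1 left out, 5 rose, and 53 with Reg1-MOs replicate 2 left out. Fitted with no variance trend, 1 rise was left. Of 77 nuclear-encoded respiratory chain genes, 3 rose and none fell, with a median of 0.14. The rises made up 3.90% of the respiratory chain set and 34.5% of the cytoplasmic ribosomal set. Over all genes 6.22% rose and 6.03% fell. Sdhb, the iron-sulfur subunit of complex II, had 1135 and 1070 reads against 1620 and 1345 (0.46, SE 0.08, adjusted p = 0.0138). Its adjusted p was 0.0859 with Ctrl MO replicate 2 left out and 0.0704 with Reg1-MOs replicate 1 left out. Those 3 rises were 2, 0, 0 and 6 with the libraries left out in the same order, and 0 without a variance trend. Both of these sets were also higher in Reg1-MOs replicate 1 than in replicate 2, in 84 of 87 and in 71 of 77 genes. Ctrl MO replicate 1 likewise exceeded Ctrl MO replicate 2, in 80 of 87 and in 65 of 77 genes. Over all genes these shares were 48.3% for Reg1-MOs and 45.3% for Ctrl MO. The differences between the 3 sets were not tested.

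**Figure D4:**
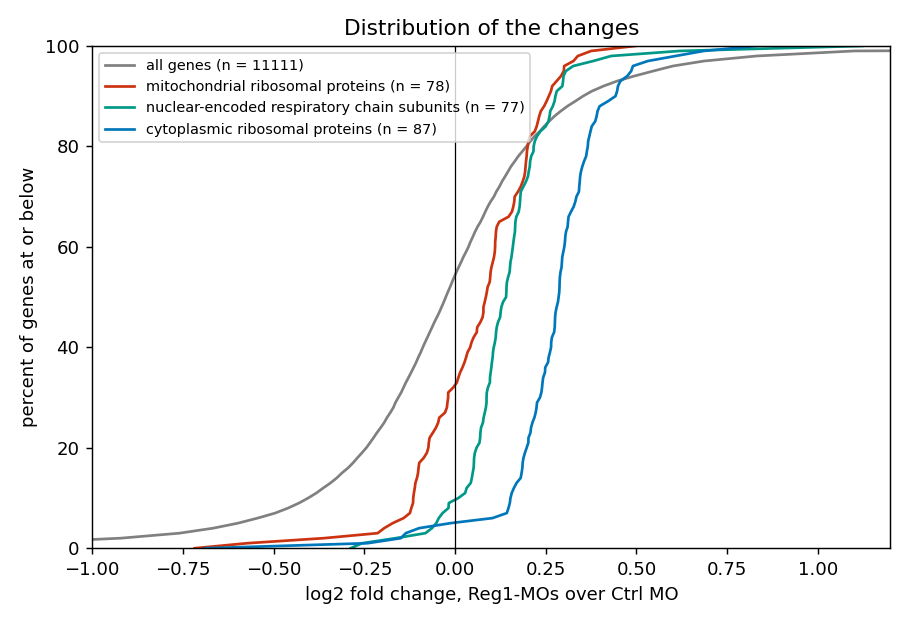
Cumulative distribution of log2 fold changes, Reg1-MOs over Ctrl MO (x axis), as the percent of genes at or below each value (y axis), for all 11111 genes and 3 sets. The curve of the 78 mitochondrial ribosomal protein genes crosses 50% at 0.08, that of 77 respiratory chain genes at 0.14 and that of 87 cytoplasmic ribosomal protein genes at 0.29, against -0.03 for all genes.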

How the data were processed

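Directional libraries of poly(A) RNA were sequenced on an Illumina instrument, per the labels' protocols. The submitters' processing notes name cutadapt, FastQC, HISAT2 and build mm10. How reads were counted, on which strand, and how genes were filtered and values normalized is not given in the sources used here. A single table of log2 values, with a column for each library, was deposited. When each value is taken as log2 of (reads + 0.5) plus a library constant, 100% of the values gave reads within 0.01 of a whole number.

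The deposited log2 values of all 11111 genes were tested unfiltered with limma 3.58.1 (R 4.3.3; moderated test, mean-variance trend, two-sided, group as the only term), with Benjamini-Hochberg adjustment. There were 2 residual and 5.47 prior degrees of freedom. SE is limma's moderated standard error. The step was also run on simulated counts with the same dispersion for every gene and no shift between replicates. That run therefore does not cover the replicate pattern seen here. Positions and exon lengths came from GENCODE M21 (GRCm38, the assembly mm10 names), where 11088 of 11090 identifiers were found; figures used matplotlib 3.10.9.

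The members and lists were chosen with earlier results of these data known. The rule for named members took those past the threshold, the 5 smallest p in each subunit, 10 role examples and the 2 highest and 2 lowest levels per kilobase, giving 22 genes, and the 2 smallest p of each pathway list. Mrpl46, Mrps11, Nrf1, Kit, Itgam, Lyz2, Cd68 and the partner genes next to members were picked once their values were known. The pattern for cytoplasmic ribosomal proteins was narrowed after the table was read, to leave out the kinase genes named Rps6k and a binding protein. Alternatives were another scaling, variance model, offset, filter, membership and subunit assignment, a replicate block, and leaving out each library.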

Additional observations from a re-analysis of the deposited data

How the results depend on the processing

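The count of called members, 1 with all libraries, was 2 with equal totals and with quantile normalization (1 rise, Mrpl2, and 1 fall each), 0 without a variance trend, 1 with voom weights, with an offset of 8 reads and when genes averaging under 50 reads were dropped, and 0 to 1 with a library left out (rises 0 to 1, falls 0 to 0). The lists differ in which gene is called: without Ctrl MO replicate 1 it is Mrpl2. The cause of these moves was not tested. No label supports a replicate block, and the correlation between groups of the replicate differences over all genes was 0.0958. Among the members, though, replicate 1 exceeded replicate 2 in 55 of 78 with Ctrl MO and in 64 of 78 with Reg1-MOs. With that block 9 members were called, 7 upwards and 2 downwards, among 1532 rises and 1891 falls in all genes. They include Mrpl2, Mrpl35, Mrpl39, Mrpl45, Mrps15 and Mrps18a upwards and Mrpl34 and Mrpl41 downwards. Of the cytoplasmic ribosomal protein genes 75 then rose and 2 fell, and of the respiratory chain genes 19 rose and 1 fell. Over all genes, calls fell to 195 rises and 182 falls without a variance trend, and ran from 249 to 530 rises and 258 to 860 falls with a library left out. The median of the large subunit ran from -0.013 to 0.16 with a library left out, that of the small from 0.03 to 0.19, and their difference from -0.060 to 0.033; all other settings kept the 3 medians within the replicate SD (0.09, 0.10 and 0.03). Of 241 values of named members under alternatives, 9 changed sign, in 6 members that had not passed. With 2 libraries per group and a median of 256 reads per member, small changes could not be told from the replicate spread.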
